A study of Homo sapiens with 2 samples.

Results

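Small structured RNAs and mitochondrial tRNAs were the genes of 4 annotation classes (biotypes) in the deposited RNA table, namely snRNA, snoRNA, misc_RNA and Mt_tRNA. Every row with one of these biotypes was taken, which gave 33 genes of the 1415 in the table, with 12 snRNA, 10 snoRNA, 8 misc_RNA and 3 Mt_tRNA genes. The cells were A549, a human non-small cell lung cancer line, sequenced as a control and after knockout of NAT10, the enzyme that acetylates cytidine in RNA to N4-acetylcytidine (ac4C). The knockout was made with CRISPR/Cas9 and a pair of guides in an exon that all NAT10 transcripts share, and the cells were a single homozygous clone, so knockout and clone cannot be told apart. There was 1 library per group. No difference below therefore has a replicate check or a p-value, and each interval is a 95% Clopper-Pearson interval that covers counting error only. It treats every read as independent. The reads carry no molecular identifiers, so reads copied from 1 molecule cannot be told apart and the intervals may be too narrow. NAT10 itself is not analysed here, so the knockout label was not checked by its own gene.

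These RNAs work as folded molecules in complexes with proteins and are not translated. U1, U2 and U6 are spliceosomal snRNAs: U1 pairs with the 5′ splice site, U2 with the branch point, and U6 takes part in catalysis. 7SL is the scaffold of the signal recognition particle, which brings ribosomes to the endoplasmic reticulum, 7SK holds the transcription elongation factor P-TEFb inactive, and Y RNAs bind the Ro protein. Box C/D snoRNAs mostly guide ribose methylation and box H/ACA snoRNAs guide pseudouridylation, while mitochondrial tRNAs are cut out of long transcripts of the mitochondrial genome. NAT10 acetylates 18S rRNA with the help of the box C/D snoRNA U13, and certain tRNAs with the adaptor THUMPD1. Many human genes of these families are copies of one another, and a large share of the annotated ones are pseudogenes.

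The values were RPKM, reads scaled by gene length and library size, and RPKM times the exon length in GENCODE release 29 gave back whole reads for all 33 genes. The control library had an effective size of 6077933 reads and the knockout library one of 5474964. The labels name a kit for mRNA, while the columns are headed input, the study's word for RNA sequenced beside an ac4C immunoprecipitation whose protocol removed rRNA, and whether that step applied to these libraries is not given in the sources used here. In their mature form, most of these RNAs carry no poly(A) tail. The fragment sizes that entered the libraries are likewise unknown. In a bulk library, fewer cells that hold an RNA and less of it per cell cannot be told apart. Of 8 marker genes of lung epithelial, blood and stromal cells, 2 were listed: CDH1, an epithelial adhesion gene, had 331 control and 127 knockout reads, and COL1A1, a stromal collagen gene, had 30 and 12. The epithelial markers KRT8, KRT18, KRT19 and EPCAM and the blood and endothelial markers PTPRC and PECAM1 are not analysed here.

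The RNA table held only genes that differed: among rows above 0 in both libraries, the smallest log2 ratio of RPKM was 0.99 in size. That the 33 RNAs differed is thus how they came to be listed, and their sizes of change are a description. The paper states that its cut for differing genes used a p-value as well as a fold change. Whether each listed gene passed that p-value was not checked. Such a cut would also bear on the reads and intervals of the listed genes. RPKM was lower in the knockout for 20 of them (60.6%) and higher for 13, beside 57.0 percent lower over the whole table. On the log2(RPKM + 1) scale, all 33 lay beyond 1 in size, 20 lower and 13 higher, whereas 19.4 percent of the table was lower and 13.4 percent higher by that much. The members' gene models were short, with a median of 107 bases against 2788 for the other genes, and 1 control read at those median lengths was worth 1.54 RPKM and 0.0590 RPKM. Of the 263 other listed genes with models no longer than the longest member (791 bases), 131 were lower and 112 higher by over 1, or 92.4%. The share past the threshold was therefore near that of these 263 genes, which were not matched in length. Their median model was 533 bases, where 1 control read was worth 0.309 RPKM. The median difference in log2(RPKM + 1) was -1.58 over the 33 RNAs, -0.996 over these 263 short genes and -0.32 over the whole table.

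**Figure D1:**
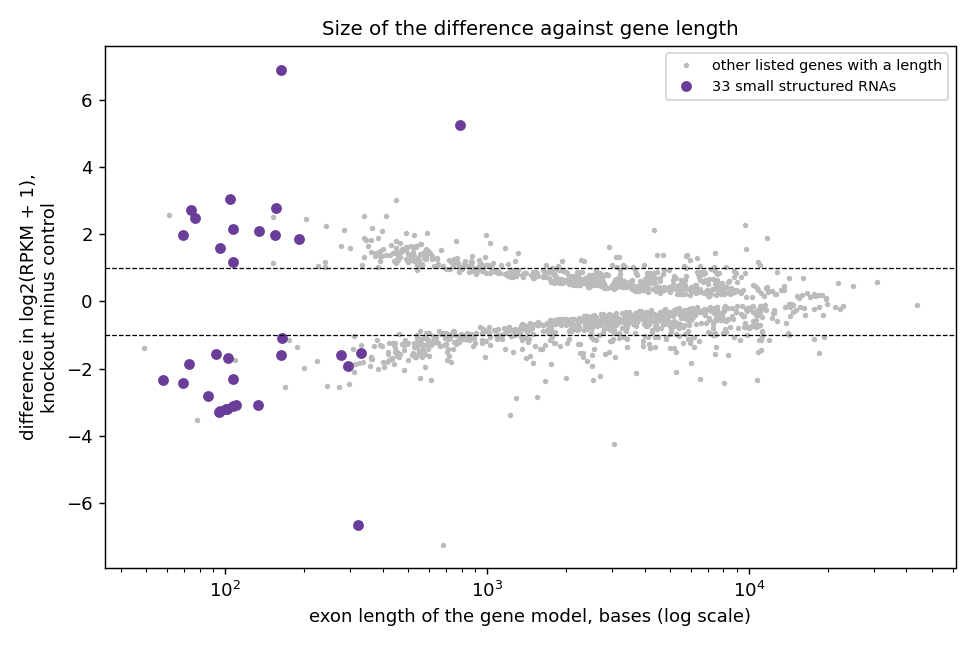
Difference in log2(RPKM + 1), knockout minus control, against the exon length of the gene model in bases (log axis) for the 33 small structured RNAs (large points) and the other listed genes (small points), with dashed lines at 1 in size. All 33 RNAs lie beyond the dashed lines, as do 92.4% of the other genes with models of 791 bases or fewer.

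Few of the 33 rested on many reads. The median was 12 reads over both libraries against 20 for the other genes, and 24 of the 33 had fewer than 20. The 263 other short genes had a median of 11 reads, and 196 of them had fewer than 20, so low counts were shared by short genes in the table. The counting interval of the log2 ratio lay below 0 for 5 RNAs (15.2%) and above 0 for 8 (24.2%), beside 38.9 and 33.4 percent of all 1343 listed genes with whole reads, and it held 0 for the other 20. Among the 263 other short genes it lay below 0 in 28.5% and above 0 in 31.2%. In 8 RNAs the whole difference was 5 reads against 0, in either direction. The same held for 44 of the 263 other short genes and for 111 of all 1343 listed genes with whole reads. Among the 8 RNAs, the interval held 0 in the 7 with 5 control reads and left out 0 in the 1 with 5 knockout reads. By biotype, 7 snRNA genes were lower and 5 higher, 4 snoRNA genes lower and 6 higher, 7 misc_RNA genes lower and 1 higher, and 2 Mt_tRNA genes lower and 1 higher. The RNAs were spread over 18 chromosomes, and the median GC content was 41.9% in the higher and 45.6% in the lower ones.

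**Figure D2:**
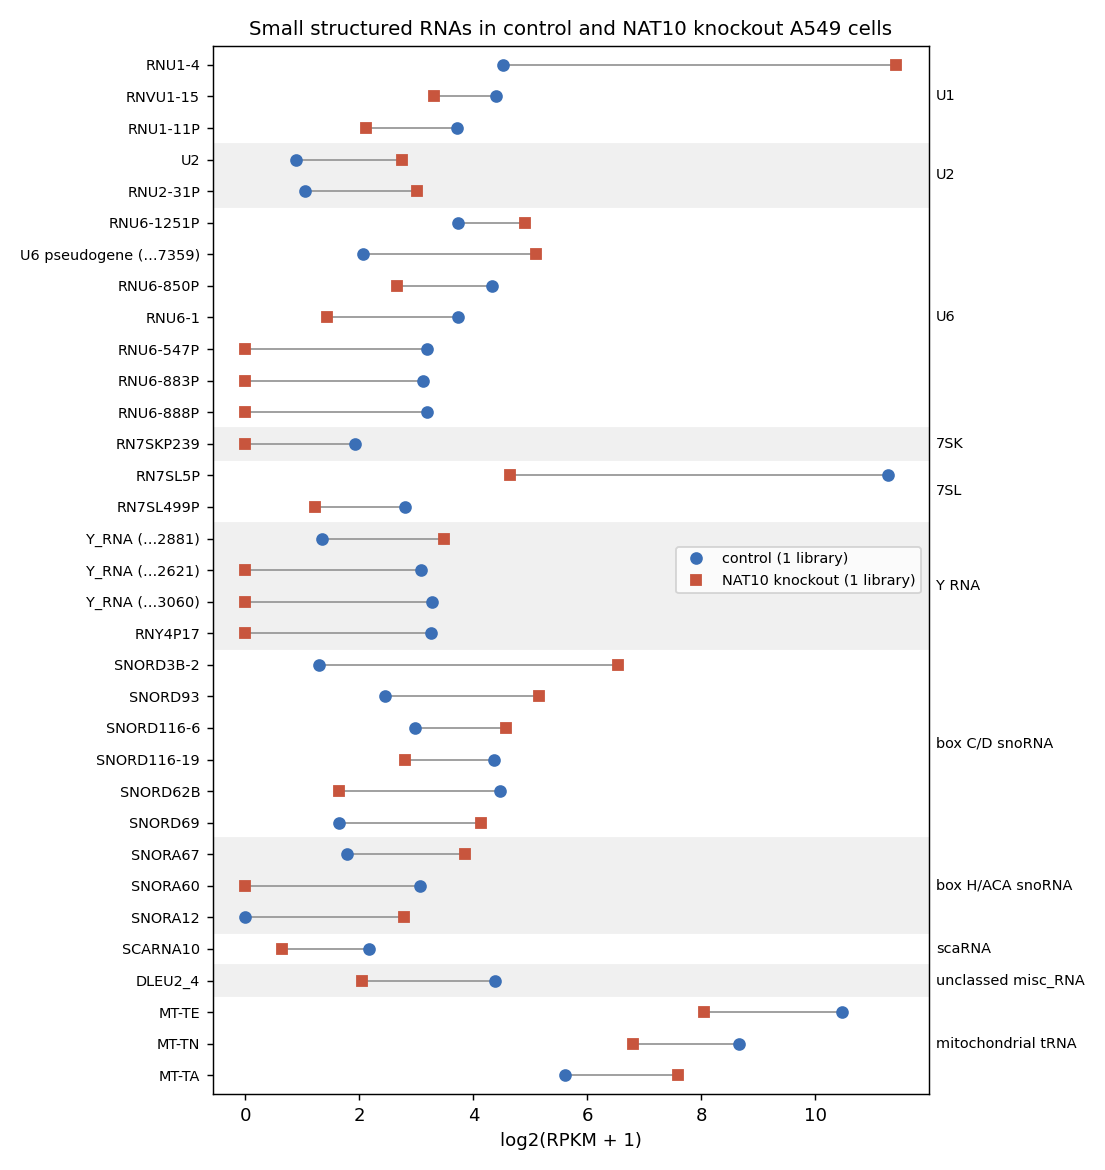
Level of each of the 33 RNAs in the control library (circles) and the NAT10 knockout library (squares), on the log2(RPKM + 1) scale, grouped by RNA class, with 1 library per point. RNU1-4 and RN7SL5P lie farthest apart, in opposite directions. The squares of 8 RNAs and the circle of 1 RNA are at 0.

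The reads of the 33 RNAs came to 5816 in the control, 0.0957% of that library, and to 3230 or 0.0590% in the knockout. A single gene held most of these reads in each library, and it was a different one. RN7SL5P made up 83.1% of them in the control and RNU1-4 75.9% in the knockout. By class, 7SL went from 83.3% of the reads of the 33 RNAs in the control to 1.36% in the knockout, and U1 from 0.929% to 76.2%. Mitochondrial tRNAs went from 13.6% to 6.69% and box C/D snoRNAs from 0.619% to 13.4%. These are shares of 1 total, so a larger share of U1 or box C/D reads makes the other shares smaller.

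**Figure D3:**
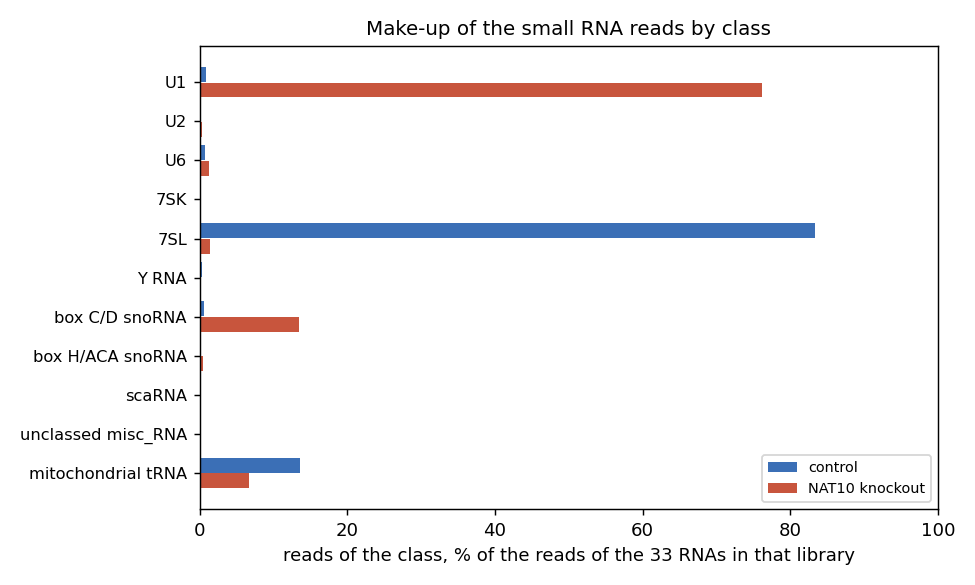
Share of the reads of the 33 RNAs that fell to each RNA class, in percent, for the control and the NAT10 knockout library (1 library each, bars from 0). The 7SL class holds 83.3% in the control, and the U1 class holds 76.2% in the knockout.

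The U1 class had 3 members, and they did not go the same way. RNU1-4 (ENSG00000207389, chr1:16740516-16740679 on GRCh38, plus strand) is a full-length U1 gene, RNVU1-15 (chr1:144412576-144412740, plus strand) is a variant U1 gene and RNU1-11P (chr6:13214056-13214219, plus strand) is annotated as a pseudogene. Their sequences are shown because they tell how much the reads of one can be told from those of another. All sequences here are GENCODE release 29 transcripts, 5′ to 3′, and capitals in the U1 set mark the bases that pair with the 5′ splice site (ACTTACCTG) and the Sm site (AATTTGTGG), where a transcript holds those letters.
RNU1-4: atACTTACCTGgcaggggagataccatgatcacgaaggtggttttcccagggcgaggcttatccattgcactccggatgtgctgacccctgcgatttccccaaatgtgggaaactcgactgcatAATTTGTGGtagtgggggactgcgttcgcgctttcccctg
RNVU1-15: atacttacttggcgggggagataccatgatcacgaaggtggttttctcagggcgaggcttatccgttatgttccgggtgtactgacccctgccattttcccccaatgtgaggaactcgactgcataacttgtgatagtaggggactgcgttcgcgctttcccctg
RNU1-11P: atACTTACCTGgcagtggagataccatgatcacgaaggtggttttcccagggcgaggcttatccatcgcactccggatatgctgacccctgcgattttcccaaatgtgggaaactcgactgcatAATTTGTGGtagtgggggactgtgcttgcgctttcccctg
RNU1-4 is identical over its 164 bases to 7 other annotated genes, among them RNU1-1, RNU1-2 and RNU1-3, and none of these 7 was matched in the table. RNU1-11P differs from RNU1-1 by the 7 substitutions G16T, T67C, G79A, C98T, C147T, T149C and C151T, counted from the 5′ end, with the RNU1-1 base first, and keeps both marks. RNVU1-15 has 89.1% identity to RNU1-1 over 165 aligned columns and holds neither mark in these letters. Read on the transcript strand alone, the splice site letters occur in 34.5% and the Sm letters in 44.8% of the 145 annotated U1 transcripts.

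RNU1-4 had the highest RPKM of all genes in the knockout column of the table. It had 22 control reads (22.1 RPKM) and 2450 knockout reads (2729 RPKM). The knockout library was 124-fold higher, a log2 ratio of RPKM of 6.95 with a counting interval of 6.35 to 7.63. In the control column RNU1-4 ranked 27. The gene lies inside CROCC on the same strand, which is not analysed here. Since how reads with several positions were placed is not given in the sources used here, this value belongs to the U1 sequence as counted at this locus and cannot be given to 1 of the identical genes.

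The other U1 genes were lower in the knockout library, and their intervals held 0. RNVU1-15 had 20 control reads (19.9 RPKM) and 8 knockout reads (8.86 RPKM), a log2 ratio of -1.17 (interval -2.56 to 0.07). RNU1-11P had 12 reads (12.04 RPKM) and 3 reads (3.34 RPKM), a log2 ratio of -1.85 (interval -4.31 to 0.04). The summed RPKM of the class had a log2 ratio of 5.66, and without RNU1-4 it was -1.39, so the direction of the class rested on that gene. The 2 U2 genes, U2 (ENSG00000278048, chr17:43251829-43252019, minus strand) and RNU2-31P (chr3:159808416-159808570, minus strand), had 1 control read and 6 knockout reads each. Each log2 ratio was 2.74 with an interval of -0.31 to 8.26, and the class sum of 2 and 12 reads had an interval of 0.57 to 5.94. The U2 gene is identical to RNU2-1 and 9 more annotated genes, 10 in all.

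In the 7SL class both members were lower in the knockout library, and 99.75% of the reads belonged to 1 gene. RN7SL5P (ENSG00000265735, chr9:9442060-9442380, plus strand) is annotated as a 7SL pseudogene with a model of 321 bases. Over part of its length it is close to RN7SL1, a functional 7SL gene of 299 bases, with 234 of 235 aligned bases identical. The rest of both sequences lay outside the aligned stretch. RN7SL5P had 4834 control reads (2478 RPKM) and 42 knockout reads (23.9 RPKM). It was 104-fold lower in the knockout library, a log2 ratio of -6.70 with an interval of -7.17 to -6.26. It had the highest RPKM of the table in the control and ranked 20 in the knockout. The gene lies inside PTPRD, a receptor phosphatase gene on the opposite strand that was listed with 7 control reads and 0 knockout reads. Reads of RN7SL5P cannot be told from those of RN7SL1 where the sequences are the same, and RN7SL1 is not analysed here.

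RN7SL499P (chr2:231645998-231646273, minus strand), a 7SL pseudogene with 76.3% identity to RN7SL1 over 291 aligned columns, had 10 control reads (5.96 RPKM) and 2 knockout reads (1.32 RPKM). Its log2 ratio was -2.17 with an interval of -5.40 to 0.06, which held 0. RN7SKP239, a copy of the 7SK RNA with 88.6% identity to RN7SK over 245 columns, had 5 control reads (2.79 RPKM) and 0 knockout reads.

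**Figure D4:**
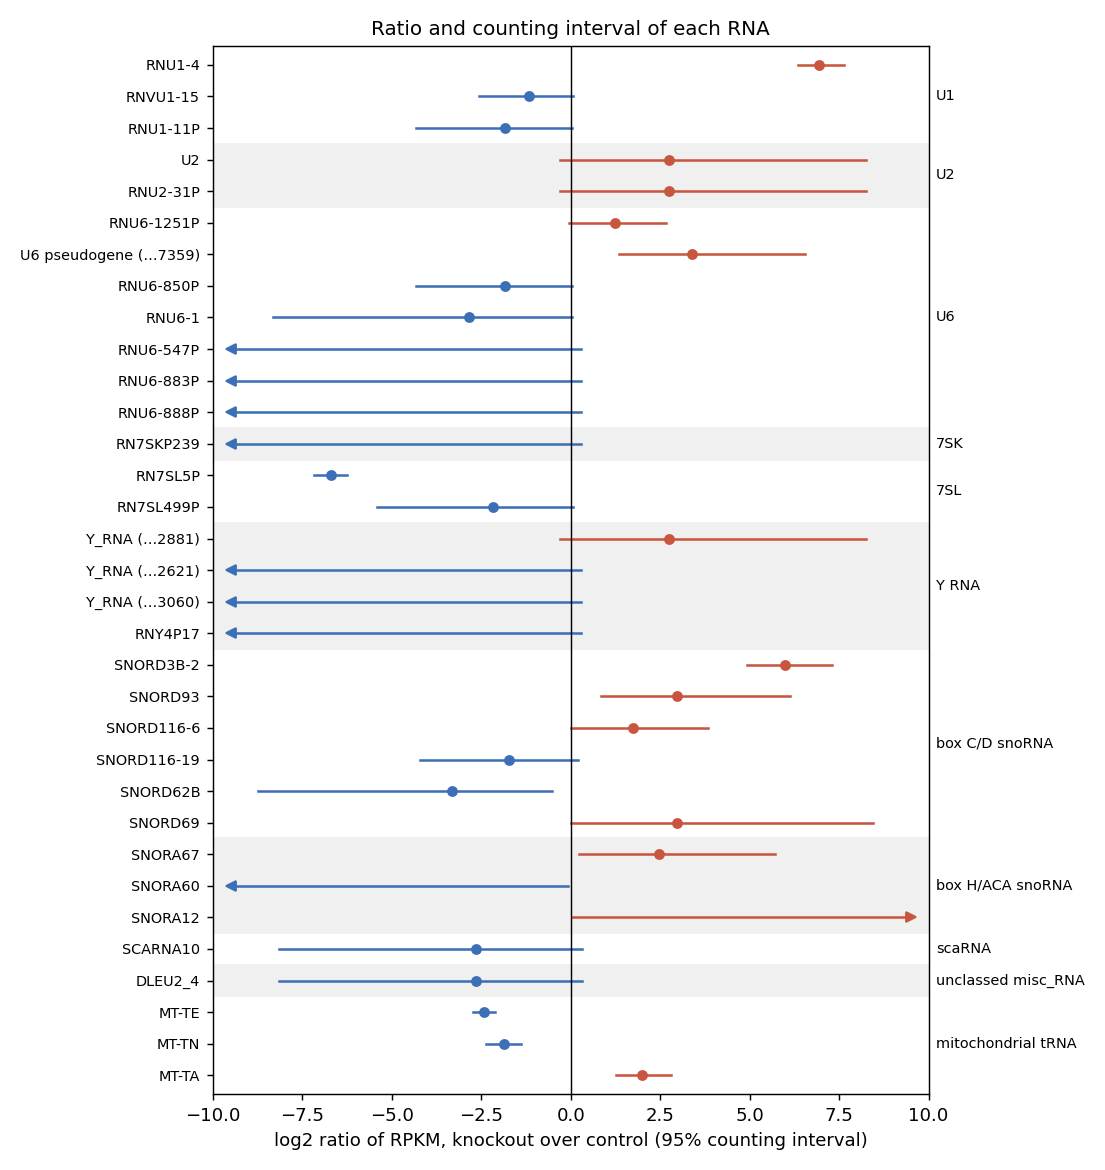
Log2 ratio of RPKM, knockout over control, for each of the 33 RNAs with its 95% counting interval (lines), grouped by RNA class, with arrows where 1 library had 0 reads and only 1 limit exists. The intervals of RNU1-4, RN7SL5P, SNORD3B-2 and the mitochondrial tRNAs lie away from 0, and those of 20 RNAs cross it.

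The U6 class was the largest with 7 members, 5 lower and 2 higher, and its sums were nearly equal. The control sum was 70.8 RPKM and the knockout sum 69.4 RPKM, a log2 ratio of -0.03, and the 45 and 40 reads gave an interval of -0.67 to 0.63. RNU6-1 (chr15:67839939-67840045, minus strand) is a functional U6 gene, RNU6-1251P (chr20:43473013-43473119, plus strand) is a near copy that went the other way, and RNU6-850P (chr6:31756951-31757053, minus strand) is a more distant copy. The letters ACAGAGA, the box that pairs with the 5′ splice site, stood in 4 of the 7 members, beside 53.7% of the 1309 annotated U6 transcripts. A run of TTTT, the stop signal of RNA polymerase III, stood in the last 6 bases of 6 of the 7, beside 52.1% of the annotated ones.

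RNU6-1 had 8 control reads (12.3 RPKM) and 1 knockout read (1.71 RPKM), a log2 ratio of -2.85 (interval -8.32 to 0.05). RNU6-1 shares its sequence with 6 other annotated genes, namely RNU6-2, RNU6-9 and 4 pseudogenes. RNU6-1251P had 8 control reads (12.3 RPKM) and 17 knockout reads (29.02 RPKM), a log2 ratio of 1.24 (interval -0.05 to 2.66). The gene and its near copy thus had equal control levels and differed in direction, with both intervals holding 0. The U6 pseudogene ENSG00000207359 had 2 control reads (3.16 RPKM) and 19 knockout reads (33.4 RPKM), a log2 ratio of 3.40. It was the only U6 member whose interval, 1.35 to 6.54, did not hold 0.

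RNU6-850P had 12 control reads (19.2 RPKM) and 3 knockout reads (5.32 RPKM), with an interval of -4.31 to 0.04. RNU6-547P, RNU6-883P and RNU6-888P each had 5 control reads (8.07, 7.69 and 8.15 RPKM) and 0 knockout reads. Against a floor of 3 reads per library, each was 1.501-fold lower, a value that allows for no counting error in the 5 control reads. The upper limit of the log2 ratio was 0.28, so these 5 reads did not set the genes apart from no difference.

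Y RNAs showed the same low counts. RNY4P17 (8.57 RPKM in the control), Y_RNA ENSG00000223060 (8.66 RPKM) and Y_RNA ENSG00000252621 (7.48 RPKM) had 5 control reads and 0 knockout reads each. Y_RNA ENSG00000222881, which lies inside TOP2A on the same strand, had 1 read (1.54 RPKM) and 6 reads (10.2 RPKM), a log2 ratio of 2.74 (interval -0.31 to 8.26). All 4 are copies, with 82.8% to 92.6% identity to RNY1, RNY3 or RNY4, the functional Y RNA genes they matched best. The class sum was 16 control and 6 knockout reads, and its interval of -2.91 to 0.16 held 0. Y_RNA ENSG00000252621 overlaps 2 listed genes on the opposite strand, ANKRD30A with 49 control reads and 0 knockout reads, and LINC00993 with 12 and 0.

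Box C/D snoRNAs had 6 members, 4 higher and 2 lower. Their sequences are shown with the core of the C box (TGATGA) and the last D box (CTGA) in capitals, the elements that bind the box C/D proteins. For SNORD3B-2, a U3 snoRNA gene that acts in the processing of the 18S rRNA precursor, the 217-base transcript at chr17:19063920-19064136 (minus strand) is given.
SNORD3B-2: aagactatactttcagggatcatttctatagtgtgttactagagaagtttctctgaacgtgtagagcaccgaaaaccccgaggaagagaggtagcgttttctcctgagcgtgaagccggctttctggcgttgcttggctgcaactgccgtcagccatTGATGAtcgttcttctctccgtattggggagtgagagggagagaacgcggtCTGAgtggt
SNORD93: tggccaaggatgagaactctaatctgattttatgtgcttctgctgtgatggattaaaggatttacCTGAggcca
SNORD69: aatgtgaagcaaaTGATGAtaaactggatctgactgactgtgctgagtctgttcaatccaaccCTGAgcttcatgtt
SNORD116-6: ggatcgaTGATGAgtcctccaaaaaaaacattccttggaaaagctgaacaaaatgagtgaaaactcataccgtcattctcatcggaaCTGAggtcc
SNORD116-19: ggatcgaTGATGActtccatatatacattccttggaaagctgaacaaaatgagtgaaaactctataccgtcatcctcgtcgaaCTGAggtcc
SNORD62B: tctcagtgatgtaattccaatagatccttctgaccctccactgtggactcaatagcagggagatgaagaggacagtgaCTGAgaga
TGATGA stood in 4 of the 6, beside 77.4% of the 288 annotated box C/D transcripts, and CTGA in the last 20 bases of all 6, beside 94.4%. SNORD3B-2 shares a whole transcript sequence with SNORD3B-1, and its 217-base transcript differs from that of SNORD3A by A78C, with the SNORD3A base first. SNORD116-19 is identical to SNORD116-17 and SNORD62B to SNORD62A.

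SNORD3B-2 (ENSG00000262074) was the box C/D RNA with the most reads. It had 7 control reads (1.46 RPKM) and 397 knockout reads (91.7 RPKM). The knockout library was 63.0-fold higher, a log2 ratio of 5.98 with an interval of 4.92 to 7.30, and the gene ranked 6 in the knockout column. As for RNU1-4, the placing of reads that fit several loci is unknown. Reads in the U3 transcript therefore cannot be given to SNORD3B-2 over SNORD3B-1 or SNORD3A. The gene was counted over a 791-base model, longer than the 217-base transcript, and where in that model the reads fell was not examined. RPKM is scaled to that model, so SNORD3B-2 counts for less in a sum of RPKM than in a sum of reads. The class ratio depended on the unit: the summed RPKM of 55.6 and 174 gave a log2 ratio of 1.64, and the summed reads of 36 and 434 gave 3.74 (interval 3.25 to 4.28). Without SNORD3B-2 the class had 29 control and 37 knockout reads.

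SNORD93 (chr7:22856613-22856686, plus strand) lies in its host gene SNHG26, and SNORD69 (chr3:52692736-52692812, plus strand) in GNL3. SNORD93 had 2 control reads (4.45 RPKM) and 14 knockout reads (34.6 RPKM), a log2 ratio of 2.96 (interval 0.84 to 6.14). SNORD69 had 1 read (2.14 RPKM) and 7 reads (16.6 RPKM), with the same ratio and an interval whose lower end touched 0. SNORD62B (chr9:131490486-131490571, plus strand, host PRRC2B) went the other way, with 11 control reads (21.0 RPKM) and 1 knockout read (2.12 RPKM). Its log2 ratio was -3.31 with an interval of -8.74 to -0.53.

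A pair of SNORD116 copies from the imprinted Prader-Willi region, which share a host gene, had opposite directions as counted. SNORD116-6 (chr15:25065026-25065121) and SNORD116-19 (chr15:25086527-25086618) lie 21405 bases apart on the plus strand of SNHG14 and are 2 of 30 annotated SNORD116 genes. SNORD116-6 had 4 control reads (6.86 RPKM) and 12 knockout reads (22.8 RPKM), a log2 ratio of 1.74 (interval 0.01 to 3.82). SNORD116-19 had 11 reads (19.7 RPKM) and 3 reads (5.96 RPKM), a log2 ratio of -1.72 (interval -4.20 to 0.20). Only the interval of SNORD116-6 left out 0, and by a small margin.

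The 3 box H/ACA genes had few reads. SNORA67 (ENSG00000252473), inside MAP4K3, had 2 control reads (2.44 RPKM) and 10 knockout reads (13.5 RPKM), a log2 ratio of 2.47 (interval 0.24 to 5.70). SNORA12 (ENSG00000212342) had 0 control reads and 5 knockout reads (5.85 RPKM), 1.85-fold higher against the floor of 3 reads. The lower limit of its log2 ratio was 0.02. SNORA60, inside the snoRNA host gene SNHG11, had 6 control reads (7.37 RPKM) and 0 knockout reads, 1.80-fold lower against that floor. The upper limit of its log2 ratio was -0.08. The floor allows for no counting error in the library with reads, and with that error included both limits lay close to 0. The identifiers listed as SNORA67 and SNORA12 are copies at other loci than the genes GENCODE gives these names, with 71.1% identity over 76 aligned columns and 86.2% over 152. The trinucleotide ACA stood in the last 8 bases of 2 of the 3, beside 89.9% of the 149 annotated box H/ACA transcripts. The summed reads of 8 and 15 gave an interval of -0.27 to 2.50.

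SCARNA10, a Cajal body RNA inside NCAPD2, and DLEU2_4, an RNA of no class used here on the strand opposite DLEU2, had 7 control reads and 1 knockout read each. Their levels were 3.49 and 0.553 RPKM for SCARNA10 and 19.9 and 3.15 RPKM for DLEU2_4. Both had a log2 ratio of -2.66 with an interval of -8.15 to 0.30. Their reads were equal, and their RPKM differed because the models are 330 and 58 bases long.

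Each of the 3 mitochondrial tRNAs had between 92 and 694 reads over both libraries, and their intervals all left out 0. MT-TE (chrM:14674-14742) carries glutamate, MT-TN (chrM:5657-5729) asparagine and MT-TA (chrM:5587-5655) alanine, and all 3 are annotated on the minus strand. They are shown with the anticodon in capitals.
MT-TE: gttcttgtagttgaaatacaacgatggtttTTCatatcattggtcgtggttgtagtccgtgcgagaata
MT-TN: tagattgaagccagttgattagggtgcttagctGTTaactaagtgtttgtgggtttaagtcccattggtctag
MT-TA: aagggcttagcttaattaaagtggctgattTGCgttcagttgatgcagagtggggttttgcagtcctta
MT-TE had 594 control reads (1416 RPKM) and 100 knockout reads (264.7 RPKM). It was 5.35-fold lower in the knockout library, a log2 ratio of -2.42 (interval -2.74 to -2.11), and ranked 2 in both columns. MT-TN had 178 reads (401 RPKM) and 44 reads (110.1 RPKM), 3.64-fold lower, with a log2 ratio of -1.87 (interval -2.38 to -1.38). MT-TA had 20 control reads (47.7 RPKM) and 72 knockout reads (191 RPKM), 3.996-fold higher, with a log2 ratio of 2.00 (interval 1.27 to 2.79). MT-TA thus went against the other two.

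MT-TA and MT-TN are neighbours, 1 base apart on the same strand, in the tRNA cluster around the origin of light-strand replication. There were 8.90 MT-TN reads per MT-TA read in the control and 0.611 in the knockout, so the order of these neighbours turned over between the libraries. The class sum was 792 control and 216 knockout reads, a log2 ratio of -1.72 in summed RPKM, with an interval of -1.95 to -1.50 from the reads. Of the 22 annotated mitochondrial tRNA genes, 8 lie on the minus and 14 on the plus strand, and the 3 listed ones were on the minus strand. They were also 3 of the 37 annotated mitochondrial genes, and the other 34 are not analysed here.

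Where the RNAs lie bears on what their reads can be. Another annotated gene overlaps 25 of the 33, with 15 inside a gene on the same strand and 12 inside one on the opposite strand, and whether the counting used strand is not given in the sources used here. Of the 10 snoRNA genes, 8 lay inside a gene on the same strand, the usual place of human snoRNAs, and 0 of those host genes were matched in the table. In all, 6 of the 33 share a whole transcript sequence with another annotated gene: RNU1-4, U2, RNU6-1, SNORD3B-2, SNORD116-19 and SNORD62B. The placing of reads with several positions is unknown, so reads in the shared sequence cannot be given to 1 locus. Set against the annotation, the listed RNAs were 12 of 1909 snRNA, 10 of 943 snoRNA, 8 of 2221 misc_RNA and 3 of 22 Mt_tRNA genes. The share of all annotated genes that was listed is not given here. These counts, and the 0 listed host genes, therefore have no overall share to be read against.

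A list of 75 symbols, older names included, held the protein partners of these RNAs: box C/D and box H/ACA proteins, Sm and LSm proteins, U1 and U6 factors, signal recognition particle proteins, Ro and La, RNA polymerase III and Integrator factors, mitochondrial tRNA processing factors and the ac4C genes NAT10 and THUMPD1. Of these, 0 were matched in the table, with 0 lower and 0 higher. The share of all annotated genes that was listed is not given here, so this count is no result about the partners. They are not analysed here, and the table gives no level for them.

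For the 3 RNAs with the most reads, the listed genes outside the 4 biotypes with the nearest levels were sought, as the distance of log2(RPKM + 1) over the 2 libraries. None was close. The nearest to RN7SL5P was CXCL5, a neutrophil-attracting chemokine, at a distance of 4.10, followed by CD24 at 4.82 and PTP4A1 at 5.08. The nearest to RNU1-4 was H1F0, a linker histone gene, at 4.70, followed by AC009299.1 at 5.31 and CR392039.3 at 5.40. The nearest to MT-TE were CXCL5 at 4.60, H1F0 at 4.97 and PTP4A1 at 5.07. CXCL5 had 144 RPKM in the control and 27.6 in the knockout, and H1F0 had 49.3 and 114.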

How the data were processed

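RNA-seq of 1 control and 1 NAT10 knockout library was analysed, with samples grouped by their titles. The value columns are headed WT-input and NAT10-KO-input, and WT-input was taken as the control because it was the only sample without a knockout. Per the labels, total RNA was extracted with RNAiso Plus and prepared with a SMARTer mRNA kit. The submitters' processing notes name hg38. Which aligner and counter were used, and how strand and multi-position reads were treated, is not given in the sources used here. The authors deposited RPKM for each gene in each library in a table limited by size of change, and the paper's stated cut for differing genes also used a p-value. The columns of fold changes, p-values and adjusted p-values in the deposited table were not used. The unit was checked on the values: RPKM times the GENCODE release 29 exon length came to whole reads, within 0.02, in each library for 1343 of 1408 genes of known length (95.4%).

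Members and lists were chosen with earlier results of these data known. RNA classes were set by symbol. Differences were taken as log2(RPKM + 1), with a threshold of 1, or as log2 ratios with 95% Clopper-Pearson intervals of the knockout share of reads. Depth sets their width, and they cover counting error only. Folds against 0 used a floor of 3 reads per library. No test was made, since there was 1 library per group. All members were named, with full values from 20 reads upward, and the 3 nearest genes were sought for the 3 with the most reads. Sequences, positions (GRCh38, counted from 1) and identities by pairwise alignment came from GENCODE release 29. Scripts ran in Python 3.11.15 with pandas 2.3.3, SciPy 1.17.1, Biopython 1.88 and matplotlib 3.10.9 and were tested on simulated data. Alternatives were the pseudocount, filters on RPKM and reads, pseudogene copies, scaling, and other sums by class, with 3 more added after seeing the data. Genes matched by no row are not analysed here, and some sequences are not reported here.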

Additional observations from a re-analysis of the deposited data

How the results depend on the processing

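With 1 library per group no leaving out of replicates was possible. No paired analysis was possible because there was 1 library per group and no test. The count of 20 lower RNAs was 20 with a pseudocount of 0.1 RPKM or a mean RPKM of at least 1, 19 when scaled to the reads of the listed genes (which shifts every log2 ratio by 0.49), and 16 with a pseudocount of 5 RPKM. It was 9 without pseudogene and repeat-derived copies and 4 among RNAs with at least 20 reads. The count of 13 higher RNAs was 8 and 5 under these last settings. Copies were known by symbol only, so the listed SNORA67 and SNORA12, which are copies at other loci, stayed among the 8. Among the settings added after seeing the data, a counting interval that leaves out 0 gave 5 lower and 8 higher, leaving out genes at 5 reads against 0 gave 13 and 12, and leaving out shared sequences gave 17 and 10. No interval is given under the scaling to the listed genes. Several limits lay nearer to 0 than its shift of 0.49, so the 5 and 8 depend on the scaling used. Without the member with the most signal, the log2 ratio turned from 5.66 to -1.39 for U1 (RNU1-4 left out) and from 0.98 to -0.33 for box H/ACA snoRNAs (SNORA67). It went from -6.62 to -2.17 for 7SL (RN7SL5P), from -1.72 to -0.58 for mitochondrial tRNAs (MT-TE) and from 1.64 to 0.60 for box C/D snoRNAs (SNORD3B-2). The median of the members gave -1.17 for U1, -4.43 for 7SL and 2.35 for box C/D snoRNAs, whose sum of reads gave 3.74. Without pseudogene copies, U6 went from -0.03 to -2.85, with RNU6-1 the only gene left. Y RNAs gave no value without their top member, since 0 knockout reads remained. Of 9 single genes under 2 pseudocounts, all 18 values kept their direction, and SNORD3B-2 moved from 5.24 to 3.90 with a pseudocount of 5 RPKM. Depth limits the 24 RNAs under 20 reads, where 1 read was worth over 1 RPKM at the median length.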

Other observations

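Other short RNAs outside the 4 biotypes were listed too, and they also went both ways. The rRNA genes RNA5-8SN1 and RNA5-8SN3, whose product pairs with 28S rRNA in the large ribosomal subunit, had 9 and 8 control reads and 19 and 45 knockout reads. Their log2 ratios were 1.23 (interval 0.01 to 2.56) and 2.64 (interval 1.54 to 3.94). Whether the reads of these 2 genes can be told apart was not examined, and the placing of reads with several positions is unknown. The 5S pseudogene RNA5SP19 had 9 control reads and 2 knockout reads, a log2 ratio of -2.02 (interval -5.27 to 0.25). The microRNA gene MIR6087 had 18 and 6 reads, a log2 ratio of -1.43 (interval -3.06 to -0.04). MIR3687-1 had 1 and 7 reads, a log2 ratio of 2.96 with an interval whose lower end touched 0.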
